A study of Mus musculus with 4 samples.

Results

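The genes described here are 34 genes of the unfolded protein response and of protein folding in the endoplasmic reticulum (ER), out of 22911 genes with a named probe. They were chosen as a fixed list by function: 6 stress sensors and transcription factors, 7 chaperones of the Hsp70 and Hsp90 families with their co-chaperones, 4 protein disulphide isomerases, 2 lectin chaperones, 7 genes of ER-associated degradation, 2 secreted or luminal stress-induced proteins, 3 genes of translocation into the ER, and 3 targets or feedback genes of the PERK, ATF4 and CHOP branch. Of the 34 genes, 33 were above background on at least 1 array and 32 on all 4. Derl3 was above background on none, and Chac1 was not above background in Lgr5- tuft marker+ cells.

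RNA was compared between 4 sorted populations of EpCAM+ tumour epithelial cells from the mouse intestine, with 1 one-colour Agilent array per population. All cells came from mice of the genotype Lgr5CreERT2/+; Ctnnb1lox(ex3)/ox(ex3), as the labels spell it, collected 14 days after tamoxifen. In these animals tamoxifen activates a Cre recombinase made from the Lgr5 locus, which removes an exon of the beta-catenin gene Ctnnb1 and leaves a stabilised protein, so the altered cells are Lgr5-expressing stem cells and their descendants. The cells were separated by Lgr5, a receptor of intestinal stem cells, and by a tuft marker that the design text gives as IL17RB, a receptor on chemosensory tuft cells. Values are listed in 1 order throughout: first both Lgr5+ populations, with and then without the tuft marker, and after them both Lgr5- populations in the same way. The age of the mice, the part of the intestine and how many animals were pooled for a sort are not given in the sources used here, and no group without the Ctnnb1 change was analysed here.

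The ER is where secreted and membrane proteins enter, fold and receive their sugars and disulphide bonds. When unfolded proteins build up there, the sensors IRE1alpha (Ern1), PERK (Eif2ak3) and ATF6 signal to the nucleus through XBP1, ATF4, CHOP (Ddit3) and cleaved ATF6, which raises chaperones, degradation factors and, on the PERK branch, genes of amino acid metabolism and redox balance. In the gut lining, goblet and Paneth cells carry a large ER for their secreted products and depend on XBP1.

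A level is the log2 processed signal of the gene's brightest probe minus the 75th percentile of the array, so 0 marks that percentile, and levels are compared only between arrays for the same gene. There were no replicates, so differences describe 4 arrays, their number limits the precision, and nothing was tested between groups. The only error in the files is an estimate given with each spot, called scanner error here. It had a median of 0.20 on the log2 difference over the genes in each pair. For bright genes it was almost constant, such as 0.144 for Atf4 on each of the 4 arrays, so it is not a spread observed in these data. On the 4 arrays, 60.2% to 69.0% of spots were well above background, which gave 15326 to 17157 genes. The sort markers followed the labels, with Il17rb at -0.38, -3.13, 0.12 and -4.70 and Lgr5 at -0.78, -0.80, -5.83 and -3.19, and Epcam lay between 4.52 and 5.56 on all arrays. In RNA from sorted populations, fewer cells of a type and less RNA per cell cannot be told apart.

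The clearest pattern was a low reading of the ER genes in Lgr5- tuft marker+ cells. Of the 32 genes above background on all arrays, 22 (68.8%) had their lowest level there, against 34% of all genes above background on all 4 arrays. For some of the 22 the next lowest array was within the scanner error. Examples are Edem1 (0.07 against 0.13), Sel1l (0.13 against 0.33) and Ddit3 (-1.16 against -1.0). Such near ties were not counted, either here or over all genes. The lowest level fell on Lgr5+ tuft marker+ for 2, on Lgr5+ tuft marker- for 5 and on Lgr5- tuft marker- for 3 of the 32, where the shares over all genes were 22%, 20.9% and 23.1%. Under the other scalings and probe rules tried, the count in Lgr5- tuft marker+ cells ran from 17 to 24. The share of all genes lowest there can move with the scaling and is not given for those settings, so this range cannot be set against the 34%. The highest level was found in Lgr5+ tuft marker+ cells for 13 genes, in Lgr5- tuft marker- cells for 11, in Lgr5+ tuft marker- cells for 5 and in Lgr5- tuft marker+ cells for 3. The corresponding shares over all genes were 23.7%, 27.8%, 18.6% and 29.9%.

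The ER genes as a set moved little. The distance between a gene's highest and lowest array ran from 0.20 to 1.79 on the log2 scale with a median of 0.75, and 8 of 32 genes (25%) spanned at least 2-fold. Over all genes the median was 0.94, and 45.3% spanned at least 2-fold.

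**Figure D1:**
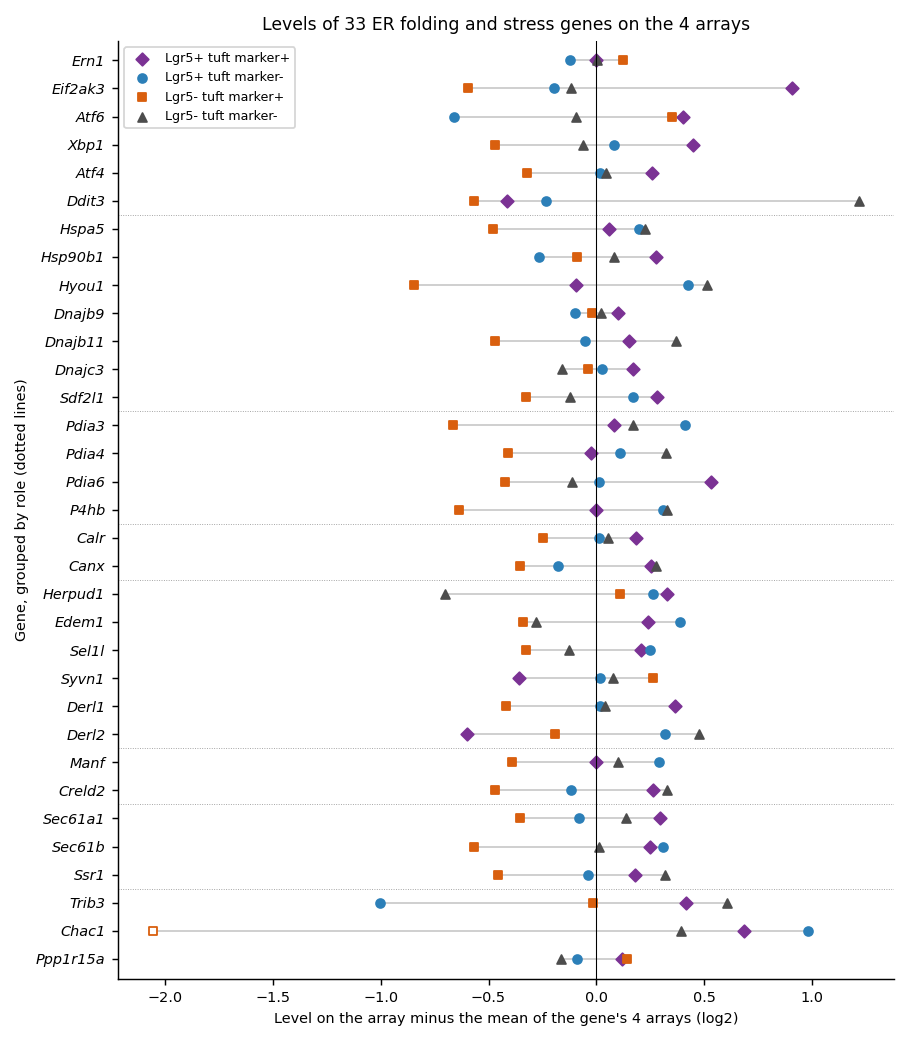
Level of each of the 33 measured genes on each array, as log2 level minus the mean of the gene's 4 arrays (horizontal axis), with genes on the vertical axis grouped by role and 1 symbol per population. The squares of Lgr5- tuft marker+ cells lie at the left end for most genes, and the open square of Chac1 marks a reading not above background.

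With the tuft marker, the ER genes read lower within Lgr5- cells, while within Lgr5+ cells their median lay near that of all genes. Within Lgr5+ cells, tuft marker+ cells read higher than tuft marker- cells for 20 of 33 genes and lower for 13, against 50.2% of all genes higher, and the median difference was 0.15. Within Lgr5- cells, 6 of 33 were higher and 27 lower, against 53.2% of all genes higher, and the median was -0.47. Of genes above background on all 4 arrays, 6801 of 14054 were higher within Lgr5-. Relative to the median of all genes in the same pair, the shift was 0.14 within Lgr5+ and -0.55 within Lgr5-. Against only the genes above background on all 4 arrays it was smaller, at 0.13 and -0.44. After another background correction (normexp), the shift against all genes was -0.05 within Lgr5+. Within Lgr5- the shift against all genes lay between -0.58 and -0.41 under the alternatives that could move it. Scaling by 1 factor per array cancels out of this shift and the fold threshold does not enter it, so those alternatives say nothing about its stability. Against genes above background on all 4 arrays, the shift within Lgr5- was -0.34 with normexp. The tuft marker difference was larger within Lgr5+ than within Lgr5- for 27 of 33 genes (81.8%), with a median gap of 0.61, against 50.9% of 16757 genes and 0.02. The 6 exceptions were Ern1, Herpud1, Edem1, Syvn1, Derl2 and Ppp1r15a, of which 4 belong to ER-associated degradation, a role with 6 of the 33 genes. The gap was small for Ern1 (-0.007), Edem1 (-0.09) and Ppp1r15a (-0.09). The second probe of Derl2 was not an exception, at 0.01 within Lgr5+ and -0.21 within Lgr5-.

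The Lgr5 comparisons use the same 4 arrays and are not independent of those of the tuft marker. Within tuft marker+ cells, Lgr5+ cells read higher for 29 of 33 genes and lower for 4, against 47.7% of all genes higher, with a median of 0.58. Of genes above background on all 4 arrays, 7408 of 14054 were higher in that pair. Within tuft marker- cells 12 were higher and 21 lower, against 50.2% of all genes higher. The median there was -0.04, and its sign turned to 0.01 with normexp and to 0.03 with the authors' scaling.

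Few single genes passed 2-fold. Within Lgr5+ cells, 3 of 33 (Eif2ak3, Atf6 and Trib3) were at least 2-fold higher with the tuft marker and 0 lower, where 10.5% and 8.23% of all genes were called. Within Lgr5- cells, 0 were at least 2-fold higher with the tuft marker and 3 (Ddit3, Hyou1 and Chac1) lower, where all genes gave 16.5% and 12.3%. Within tuft marker+ cells, 2 (Eif2ak3 and Chac1) were at least 2-fold higher in Lgr5+ cells and 0 lower, against 8.97% and 11.5%. Within tuft marker- cells, 0 were at least 2-fold higher in Lgr5+ cells and 2 (Ddit3 and Trib3) lower, against 6.56% and 5.31%. Read as shares of 33, these counts were below or near those of all genes with this scaling. With the array median as the scale, 8 of 33 were at least 2-fold lower with the tuft marker within Lgr5- and 6 at least 2-fold higher with Lgr5 within tuft marker+ cells, where 19.2% and 14.8% of all genes were called. With normexp these counts were 1 and 0, beside 4.41% and 2.17% of all genes.

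**Figure D2:**
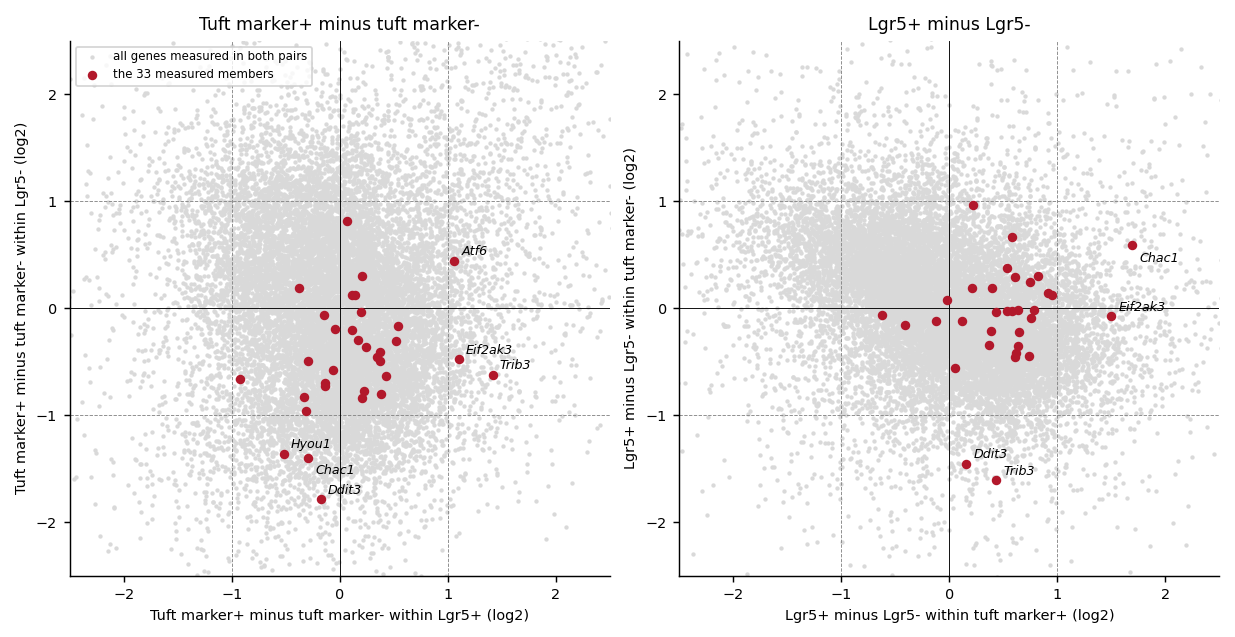
Log2 differences of all genes (grey) and of the 33 measured ER genes (red) for the tuft marker (left: within Lgr5+ on the horizontal axis, within Lgr5- on the vertical axis) and for Lgr5 (right: tuft marker+ cells on the horizontal axis, tuft marker- cells on the vertical axis); dashed lines mark 2-fold and genes beyond the axes are not drawn. Most red points lie below 0 on the vertical axis at left (27 of 33) and to the right of 0 on the horizontal axis at right (29 of 33).

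Promoter sequences are shown for the genes that share the ER stress element, a motif bound by ATF6 with NF-Y. Among them are Hspa5, Pdia6, Canx, Calr and Creld2, which had their lowest level in Lgr5- tuft marker+ cells, and Dnajc3 and Syvn1, which did not. The RefSeq promoter table (GRCm38.p6, 250 bases before to 50 after each start site) held 29 of the 34 genes, and Atf6, Derl1, Hyou1, Manf and Sec61a1 were not matched. Motifs were searched on both strands. ERSE was taken as CCAAT, 9 letters of any kind and CCACG. It was present in 39 of 32851 promoters (0.119%), and in 9 of the 29 ER genes. Capitals mark CCAAT and CCACG, or their reverse complements ATTGG and CGTGG where the element lies on the other strand. Each sequence runs 5′ to 3′ along the gene's strand.

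Hspa5, chr2:34772013-34772055, plus strand: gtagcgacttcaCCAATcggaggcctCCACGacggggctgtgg
Pdia6, chr12:17266479-17266521, plus strand: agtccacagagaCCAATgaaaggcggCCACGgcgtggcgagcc
Dnajc3, chr14:118937815-118937857, plus strand: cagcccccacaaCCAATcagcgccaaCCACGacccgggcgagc
Syvn1, chr19:6046520-6046562, plus strand: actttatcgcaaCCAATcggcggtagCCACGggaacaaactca
Canx, chr11:50325788-50325830, minus strand: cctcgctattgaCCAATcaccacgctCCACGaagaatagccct
Calr, chr8:84847063-84847105, minus strand: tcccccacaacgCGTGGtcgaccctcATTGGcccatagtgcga
Creld2, chr15:88819508-88819550, plus strand: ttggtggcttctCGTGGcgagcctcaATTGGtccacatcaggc
Derl3, chr10:75893230-75893272, plus strand: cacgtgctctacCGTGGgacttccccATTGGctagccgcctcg

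The ninth gene, Hsp90b1, held 2 matches. ERSE-II, taken as ATTGG, 1 letter and CCACG, was present in 12 promoters (0.0365%), among them those of Herpud1 and Dnajb11. The CCACG core alone was present in 10765 promoters (32.8%) and in 23 of the 29 ER genes. Some of these overlap ERSE or ERSE-II, which contain it. UPRE, taken as TGACGTGG, was present in 222 promoters (0.676%) and in 0 of the 29, which says only that these letters are not in these windows. CARE, the element of ATF4 and CHOP, was taken as TGATGNAA. It was present in 1304 promoters (3.97%) and in 3 ER genes, Chac1, Herpud1 and Trib3. The ERSE-II of Herpud1 and the CARE of Chac1 and Herpud1 read as follows, with the motif in capitals.

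Herpud1 ERSE-II, chr8:94386365-94386399, plus strand: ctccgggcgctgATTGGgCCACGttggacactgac
Herpud1 CARE, chr8:94386305-94386336, plus strand: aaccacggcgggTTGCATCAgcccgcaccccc
Chac1 CARE, chr2:119351037-119351068, plus strand: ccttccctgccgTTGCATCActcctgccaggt

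Within Lgr5-, the tuft marker difference had a negative median both in ER genes with ERSE or ERSE-II and in ER genes without. The 10 measured genes with ERSE or ERSE-II had median tuft marker differences of 0.19 within Lgr5+ and -0.31 within Lgr5-, with 7 of 10 lower in the latter. The 18 ER genes in the table without either had medians of 0.04 and -0.53, with 16 of 18 lower. Of all genes in the promoter table, 6711 of 14172 were lower within Lgr5-, with a median of 0.06. Of 21 measured other genes with ERSE or ERSE-II, 12 were lower there, with a median of -0.23. Derl3, which carries ERSE, was not above background on any array, at -5.41, -5.92, -5.71 and -5.71. A match is a description of the sequence and was not tested as a site.

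Among the sensors, Eif2ak3 and Atf6 differed by more than 2-fold between populations and Ern1 varied little. Ern1, which encodes the kinase and ribonuclease IRE1alpha, read -0.56, -0.68, -0.44 and -0.56, a span close to the scanner error. Eif2ak3, which encodes PERK, the kinase that slows translation, read -1.40, -2.51, -2.90 and -2.43. The Lgr5+ tuft marker+ array stood above the other 3: the difference was 1.1 (scanner error 0.27, 2.15-fold) against Lgr5+ tuft marker- cells and 1.5 (scanner error 0.31, 2.83-fold) against Lgr5- tuft marker+ cells. Atf6, the membrane-bound transcription factor, read 0.32, -0.75, 0.26 and -0.18. Both tuft marker+ arrays were above both tuft marker- arrays, by 1.06 (scanner error 0.21, 2.09-fold) within Lgr5+ and by 0.45 within Lgr5-. With normexp these 2-fold calls were lost, with Eif2ak3 at 0.52 and 0.49 and Atf6 at 0.73.

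Xbp1 and Atf4 were both highest in Lgr5+ tuft marker+ and lowest in Lgr5- tuft marker+ cells on their brightest probes. Xbp1, whose message IRE1alpha splices, read 2.36, 1.99, 1.44 and 1.85. Its other probes gave 1.47, 1.25, 0.06 and 0.83, and 1.91, 1.93, 0.67 and 1.60, with the lowest reading on the same array. Which spliced form the probes read was not analysed here. Atf4, the transcription factor translated when PERK is active, read 6.70, 6.46, 6.13 and 6.49 on its brightest probe and 3.23, 3.32, 2.02 and 3.36 on the other. Both probes were lowest in Lgr5- tuft marker+ cells, by 0.37 and by 1.35 below Lgr5- tuft marker- cells.

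Ddit3, which encodes the pro-apoptotic factor CHOP, had the widest range of the 32 genes. It read -1.0, -0.83, -1.16 and 0.62, so 3 arrays lay close together and the Lgr5- tuft marker- array stood apart. Its difference was -1.79 (scanner error 0.21, 3.45-fold lower) for the tuft marker within Lgr5- and -1.45 (scanner error 0.21, 2.74-fold lower) for Lgr5 within tuft marker- cells. The first call held under all 8 alternatives tried, from -2.02 to -1.16, and the second under 7, with -0.96 under normexp. Averaging probes or changing detection could not alter these values, since Ddit3 has 1 probe, above background on all 4 arrays.

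The 3 targets and feedback genes of that branch each had a pattern of their own. Trib3, a pseudokinase induced by ATF4 and CHOP, read -0.63, -2.05, -1.06 and -0.44. It was lowest in Lgr5+ tuft marker- cells, 1.42 below Lgr5+ tuft marker+ cells (scanner error 0.23, 2.67-fold) and 1.61 below Lgr5- tuft marker- cells (scanner error 0.23, 3.05-fold). Chac1, which degrades glutathione, read -1.97 and -1.67 on both Lgr5+ arrays and -2.26 in Lgr5- tuft marker- cells, and its -4.70 on the Lgr5- tuft marker+ array was not above background. Against that array's floor of -3.66, Chac1 was at least 3.23-fold higher in Lgr5+ tuft marker+ cells and at least 2.64-fold higher in Lgr5- tuft marker- cells. Ppp1r15a, which encodes the phosphatase subunit GADD34 that restores translation, read 0.78, 0.57, 0.81 and 0.50, with all 4 arrays close together. With normexp Trib3 was at 0.89 and -0.99, and Chac1 at 0.54 and -0.43, all short of 2-fold. The genes of 1 branch had different arrays as their highest: Eif2ak3 and Atf4 in Lgr5+ tuft marker+ cells, Ddit3 and Trib3 in Lgr5- tuft marker- cells, Chac1 in Lgr5+ tuft marker- cells and Ppp1r15a in Lgr5- tuft marker+ cells. For Trib3 and Ppp1r15a the next highest array was within the scanner error. The place of Atf4 is that of its brightest probe. Its other probe was highest in Lgr5- tuft marker- cells, at 3.36 against 3.23 in Lgr5+ tuft marker+ cells.

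**Figure D3:**
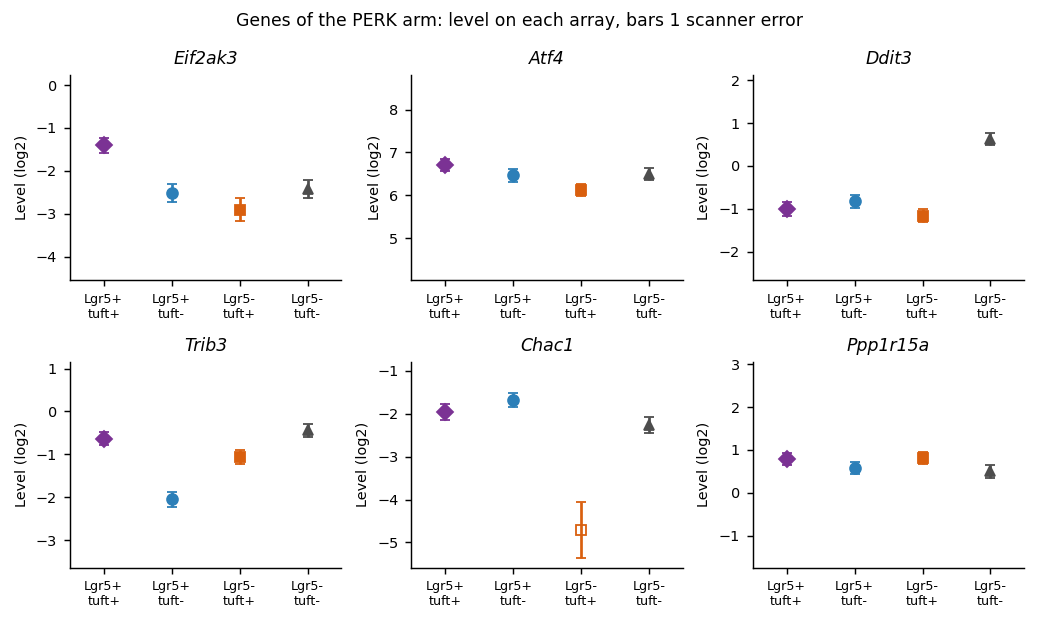
Level (log2 units above or below the array's 75th percentile) of 6 genes of the PERK, ATF4 and CHOP branch on each array, with bars of 1 scanner error; every panel spans the same height in log2 units, and the open square marks Chac1 not above background. Ddit3 stands apart in Lgr5- tuft marker- cells at 0.62, Trib3 is lowest in Lgr5+ tuft marker- cells at -2.05 and Eif2ak3 is highest in Lgr5+ tuft marker+ cells at -1.40.

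Among the Hsp70 and Hsp90 chaperones and their co-chaperones, Hspa5, Hyou1, Dnajb11 and Sdf2l1 were lowest in Lgr5- tuft marker+ cells. Of all genes above background on all 4 arrays, 34% were lowest there. Hspa5, which encodes BiP, the Hsp70 chaperone that also holds the sensors inactive, read 5.14, 5.28, 4.61 and 5.31. On this probe the other 3 arrays lay within a narrow band, and the tuft marker difference within Lgr5- was -0.70. Another probe gave -0.67, but a further one read 4.37, 4.07, 3.99 and 4.06, with a difference of -0.07 and the Lgr5+ tuft marker+ array apart from the rest. Hyou1, the Hsp70-like exchange factor of BiP, read 0.10, 0.62, -0.65 and 0.71, and was 1.36 lower with the tuft marker within Lgr5- (scanner error 0.21, 2.57-fold). Its other probes gave -1.26 and -1.17 for the same difference, so all 3 were past 2-fold, although normexp brought the call just under the threshold. Dnajb11, a J-domain partner of BiP, read 2.22, 2.02, 1.60 and 2.44, and Sdf2l1, which acts with it, read 3.89, 3.78, 3.28 and 3.49, each lowest on the same array. For Sdf2l1 the gap to the next lowest array was close to the scanner error.

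The other chaperones of this group did not have that low reading on their brightest probes. Hsp90b1, which encodes the Hsp90 of the ER, read 6.16, 5.61, 5.79 and 5.96, with its lowest level in Lgr5+ tuft marker- cells. Dnajb9, a J-domain protein that restrains IRE1alpha, read 2.79, 2.59, 2.67 and 2.71, and Dnajc3, an inhibitor of PERK and a BiP co-chaperone, read 1.53, 1.38, 1.32 and 1.20. The spans of Dnajb9 and Dnajc3 were near the scanner error. The second probe of Dnajb9 differed from the first. It read -0.87, 0.09, -0.94 and -0.28, lowest in Lgr5- tuft marker+ cells, with tuft marker differences of -0.96 within Lgr5+ and -0.66 within Lgr5- against 0.20 and -0.04.

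All 4 protein disulphide isomerases, which form and rearrange disulphide bonds, were lowest in Lgr5- tuft marker+ cells. Pdia3 read 3.66, 3.99, 2.92 and 3.75, and P4hb read 3.23, 3.54, 2.60 and 3.56. Pdia4 read 0.76, 0.90, 0.38 and 1.11, and Pdia6 read 2.42, 1.91, 1.47 and 1.78. With the tuft marker within Lgr5-, the 4 differed by -0.83, -0.96, -0.73 and -0.31 in that order, a median of -0.78. With Lgr5 within tuft marker+ cells, all 4 were higher, with a median of 0.69. Pdia6 differed from the other 3 in having its highest level in Lgr5+ tuft marker+ cells.

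The lectin chaperones, which hold glycoproteins during folding, were also lowest there. Calreticulin (Calr) read 3.03, 2.86, 2.59 and 2.90. Calnexin (Canx), its membrane-bound relative, read 3.39, 2.96, 2.79 and 3.42, with the double positive and double negative arrays alike and both single positive arrays lower. Its tuft marker difference was 0.43 within Lgr5+ and -0.63 within Lgr5-, and a second probe gave 0.49 and -0.69.

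Both secreted or luminal stress-induced proteins and all 3 translocation genes followed the same order at the low end. Manf, a secreted factor retained in the ER until stress, read 3.23, 3.53, 2.84 and 3.33, and Creld2, induced by ATF6, read 2.61, 2.23, 1.88 and 2.68. Sec61a1, the channel subunit of the translocon, read 4.12, 3.75, 3.48 and 3.97. Sec61b, its small partner subunit, read 2.62, 2.67, 1.80 and 2.38, and Ssr1, of the translocon-associated complex, read 1.08, 0.86, 0.44 and 1.21. All 5 were lowest in Lgr5- tuft marker+ cells. The probes of Sec61a1 disagreed: its 3 probes gave tuft marker differences within Lgr5- of -0.49, -1.74 and 0.24.

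The genes of ER-associated degradation, which returns misfolded proteins to the cytosol, had a mixed pattern. Edem1, which selects glycoproteins for removal, read 0.65, 0.80, 0.07 and 0.13, and Sel1l, the adaptor of the ubiquitin ligase complex, read 0.67, 0.70, 0.13 and 0.33. Both Lgr5+ arrays were above both Lgr5- arrays for these genes, by 0.58 and 0.67 for Edem1 and by 0.53 and 0.37 for Sel1l. The second probes did not repeat this: for Edem1 the Lgr5 differences were -0.31 and 0.11, and for Sel1l 0.73 and -0.47. Herpud1, a membrane protein of the degradation complex, read 1.04, 0.97, 0.82 and 0.01. It was lowest in Lgr5- tuft marker- cells on this probe, with a tuft marker difference within Lgr5- of 0.81, but its second probe gave -0.07.

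Syvn1, the ubiquitin ligase HRD1, had the reverse order of most ER genes, at 0.58, 0.96, 1.21 and 1.02, highest in Lgr5- tuft marker+ and lowest in Lgr5+ tuft marker+ cells. Derl2, a channel protein of the complex, read 1.38, 2.30, 1.79 and 2.46. Its tuft marker difference was -0.92 within Lgr5+ and -0.67 within Lgr5-, while its second probe gave 0.01 and -0.21. Derl1 read -1.49, -1.84, -2.28 and -1.82 and followed the majority.

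Different probes of a gene gave a measure of error beyond the scanner's. For the 16 genes with at least 2 probes above background, the median standard deviation between probes was 0.26 and 0.28 for the tuft marker difference within Lgr5+ and within Lgr5-. For the Lgr5 difference it was 0.22 where the tuft marker was present and 0.09 where it was absent. Within Lgr5-, the probes had the same sign for 14 of the 16 genes, all but Herpud1 and Sec61a1. Within Lgr5+, 9 of the 16 had probes of opposite sign, so the small positive median there was within the disagreement of probes. In these 16 genes alone, the median tuft marker difference was 0.01 within Lgr5+ and -0.54 within Lgr5-.

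**Figure D4:**
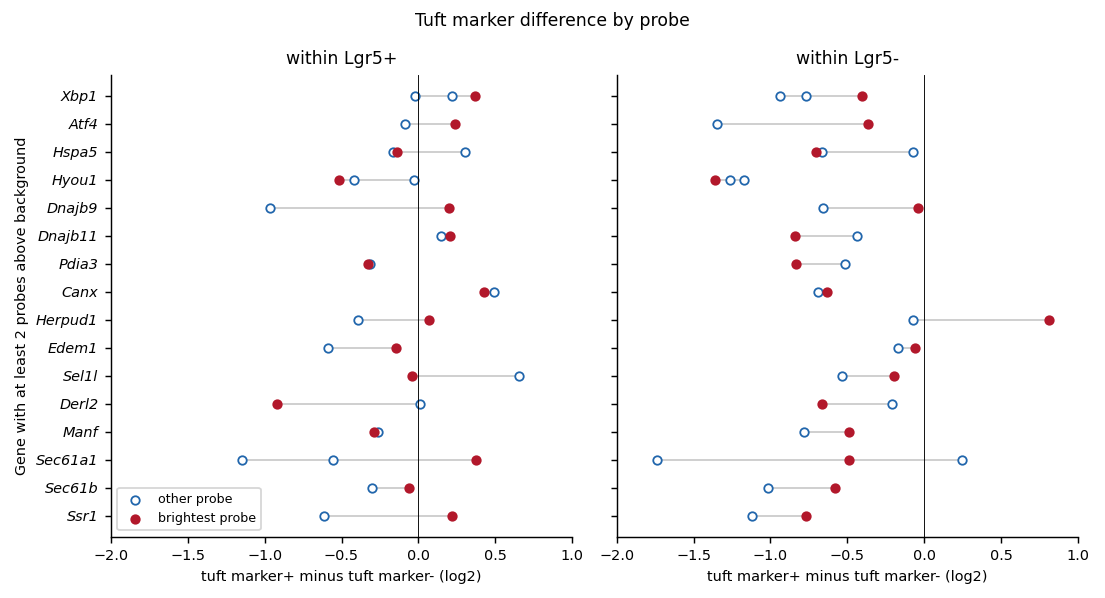
Tuft marker difference (log2, horizontal axis) of every probe above background for the 16 genes with at least 2 such probes, within Lgr5+ (left) and within Lgr5- (right); filled points are the brightest probe and open points the others. Within Lgr5- nearly all points lie below 0, whereas within Lgr5+ the probes of 9 genes fall on both sides.

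The wider pathway was read in 6 lists of 195 further genes, of which 194 had a probe. Together, 54 of 189 were higher and 135 lower with the tuft marker within Lgr5-, with a median of -0.43, against 53.2% of all genes higher. Of these, 13 were at least 2-fold higher and 45 at least 2-fold lower, where 16.5% and 12.3% of all genes were called. Within Lgr5+, 105 of 192 were higher, against 50.2% of all genes, and the median was 0.08. With Lgr5 within tuft marker+ cells, 132 of 189 were higher, against 47.7% of all genes, with a median of 0.45. There 30 were at least 2-fold higher and 8 lower, where 8.97% and 11.5% of all genes were called. Within tuft marker- cells 78 of 189 were higher, against 50.2% of all genes, with a median of -0.11. In each pair the median had the sign of that of the 33 ER genes. Within tuft marker- cells the sign of the ER genes' median itself turned with normexp and with the authors' scaling.

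COPII and ER export genes, which build the vesicles that leave the ER, gave the most even picture. Of 29 measured, 25 were lower with the tuft marker within Lgr5- (median -0.43) and 27 higher with Lgr5 within tuft marker+ cells (median 0.59). Sec13 and Sec31a, subunits of the outer coat, were 1.66 and 1.40 lower in the first of these comparisons. The cargo receptor Mia3 was 1.71 higher and the cargo adaptor Sec24d 1.33 higher in the second. Genes of the translocon, signal peptidase and oligosaccharyltransferase had 28 of 33 lower within Lgr5- (median -0.48), among them the transferase subunits Stt3b (-1.58) and Ostc (-1.35). Tram2 went the other way, at 1.79.

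Among other chaperones and folding enzymes, 28 of 44 were lower with the tuft marker within Lgr5- and 16 higher, with a median of -0.34. Pdia5, a disulphide isomerase, was 2.82 lower, and the testis chaperone calmegin (Clgn) was 1.55 higher. Agr2, the disulphide isomerase needed for mucin folding, was 1.97 higher in Lgr5+ cells within tuft marker+ cells, and is also a goblet cell marker. Other degradation genes had 19 of 31 lower within Lgr5- (median -0.23). Ube2j1, a ubiquitin-conjugating enzyme of the ER, was 1.84 higher with the tuft marker within Lgr5+.

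Among other sensors and factors, Atf6b, the relative of ATF6, was 1.46 higher with the tuft marker within Lgr5+ and 1.54 lower within Lgr5-. Ern2, which encodes IRE1beta, the epithelial form of IRE1 known from goblet cells, read 1.99, 2.12, -0.69 and 0.74. It was higher in Lgr5+ cells by 2.68 where the tuft marker was present and by 1.37 where it was absent. ATF4 and integrated stress response targets split: 22 of 33 were lower with the tuft marker within Lgr5- (median -0.46), with 10 at least 2-fold lower and 3 at least 2-fold higher, beside 12.3% and 16.5% of all genes. The mitochondrial folate enzymes Shmt2 and Mthfd2 were 2.60 and 1.79 lower, while the cytokine Gdf15 and the transcription factor Cebpb were 2.02 and 2.28 higher.

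**Figure D5:**
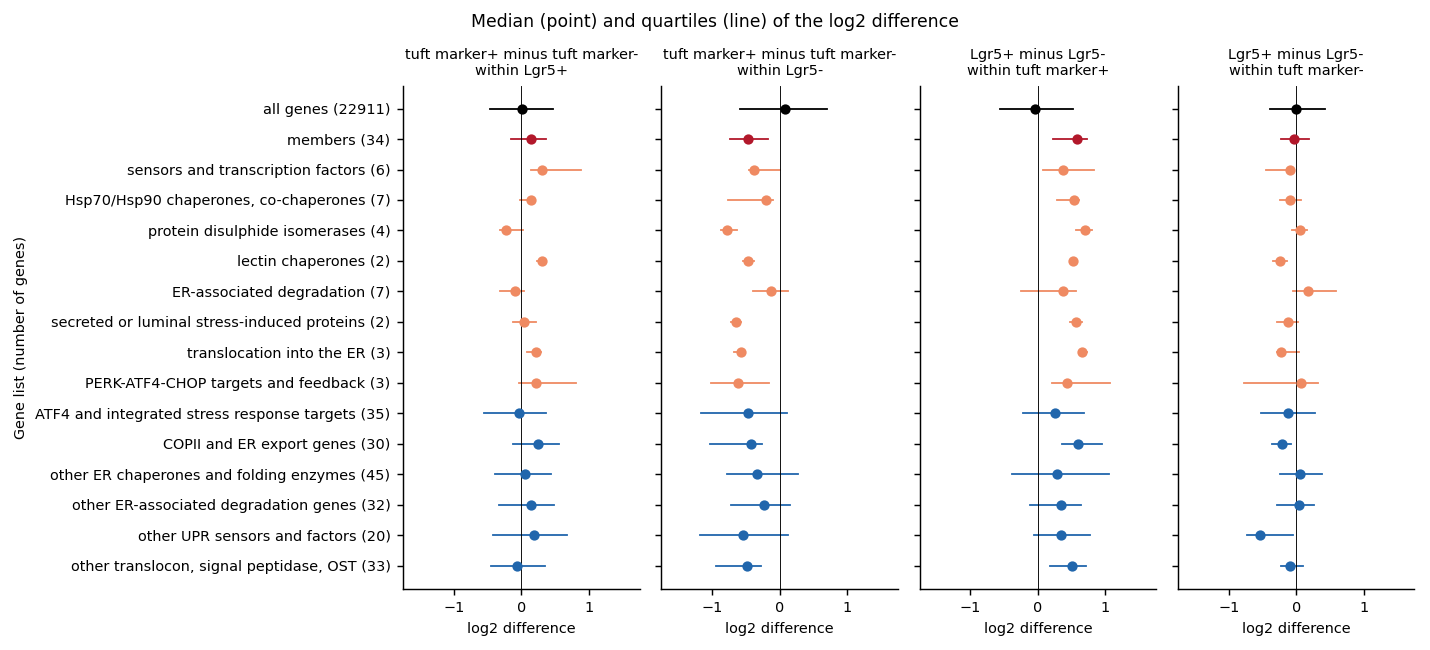
Median (point) and quartiles (line) of the log2 difference in each of the 4 pairs, for all genes, the ER genes (labelled members), their 8 roles and the 6 further pathway lists; numbers in brackets are genes in the list. The medians of the roles and lists lie below 0 in the tuft marker difference within Lgr5- and above 0 in the Lgr5 difference within tuft marker+ cells. All genes have medians of 0.08 and -0.04 there. The quartile lines of several lists cross 0.

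Markers of other cell types moved between the same arrays. Not every marker list is given for each pair. Within Lgr5-, where the ER genes were lower in tuft marker+ cells, all 10 goblet cell markers were lower (median -1.53), as were 6 of 7 Paneth cell markers (-0.50), 9 of 10 enteroendocrine markers (-1.66) and 6 of 8 epithelial markers (-0.73). All 11 myeloid markers were higher (2.97), as were 9 of 10 stromal (3.76), 8 of 9 B and plasma cell (1.33), 7 of 7 T and NK cell (1.17) and 15 of 15 pancreatic acinar markers (2.21). With Lgr5 within tuft marker+ cells, where 29 of 33 ER genes were higher, 8 of 10 goblet (median 1.65), 7 of 7 Paneth (1.85) and 7 of 8 epithelial markers (0.61) were higher, and 15 of 15 acinar (-4.49), 9 of 10 stromal (-2.02) and 10 of 11 myeloid markers (-0.86) were lower. With the tuft marker within Lgr5+, 9 of 10 goblet (-0.73), 6 of 7 Paneth (-0.25), 8 of 10 enteroendocrine (-0.94) and 15 of 15 acinar markers (-3.88) were lower. In that pair 7 of 8 enterocyte (1.87), 6 of 8 epithelial (0.35), 9 of 11 myeloid (2.07) and 5 of 7 stromal markers (2.76) were higher. With Lgr5 within tuft marker- cells, the ER genes had a median of -0.04. There 10 of 10 goblet (0.84), 7 of 7 Paneth (1.32), 7 of 8 tuft cell (1.21) and 15 of 15 acinar markers (1.96) were higher. In the same pair 8 of 8 enterocyte (-1.14) and 8 of 8 epithelial markers (-0.35) were lower. The part of any of these in the differences of the ER genes was not tested.

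As log2 summed levels, goblet markers stood at 7.22, 8.27, 5.85 and 7.46 and Paneth markers at 9.24, 9.49, 7.41 and 8.20, both lowest in Lgr5- tuft marker+ cells. Enteroendocrine markers stood at 4.78, 5.03, 3.91 and 5.34, enterocyte markers at 7.40, 5.55, 6.78 and 6.88 and epithelial markers at 8.01, 7.23, 7.71 and 7.60. Tuft cell markers stood at 6.12, 2.51, 5.77 and 0.94. Acinar markers stood at 3.82, 6.85, 7.28 and 4.92, stromal markers at 5.33, 4.99, 5.90 and 5.37 and T and NK cell markers at 3.82, 4.38, 5.24 and 3.97. Myeloid markers stood at 9.48, 9.09, 9.57 and 9.27 and B and plasma cell markers at 2.23, 1.72, 2.69 and 1.99. The myeloid sum rests mainly on Itgam, which read 8.98 to 9.34 on all arrays, and the median myeloid level was 2.35, -1.69, 3.29 and 0.34. The stromal sum rests mainly on Acta2, at 4.86, 4.94, 4.52 and 5.32, and the median stromal level was -0.37, -2.98, 1.65 and -3.09. The B cell gene Ms4a1 and the plasma cell gene Tnfrsf17 were not well above background on any array, and the stromal genes Lum, Pdgfra and Pdgfrb were so only in Lgr5- tuft marker+ cells.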

How the data were processed

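Per the labels, 13 ng of total RNA per sort was amplified and labelled with Cy3. Per the file headers, Agilent Feature Extraction 12.0.3.1 had subtracted background from the deposited intensity and detrended it across the array, with no scaling between arrays; the submitters' processing notes name 11.5.1.1. The authors also deposited a table of intensity values, which from the values was the same signal times 10.9, 7.82, 11.9 and 9.08 on the 4 arrays, on a linear scale and not centred by gene, with column medians of 279, 286, 365 and 253; whether this scaling was intended is unknown. The deposited files also hold flags (other values of 0 or 1), among them the call of well above background and outliers.

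All 4 arrays lay on 1 slide read in 1 scan. Control spots and 91 to 122 outlier spots per array were left out, and no spot was saturated. Of 56605 probes, 32994 were named through their accession in a RefSeq gene table (GRCm38.p6) and 23611 were not used here. A gene took its probe of highest mean intensity, and counted as above background if 1 or more of its probes passed the flag. Differences used values raised to the array's floor (-3.41, -3.86, -3.66 and -3.69), the lowest level among singly spotted probes above background, and a difference against a gene not above background is given as "at least". A gene counted in a pair if above background on at least 1 of its arrays, and a call is a difference of at least 2-fold. Scanner errors are the estimates given with the spots and do not cover animals, sorts or labelling.

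All 34 ER genes are named. From each further list, at most 2 genes per direction and pair were eligible, those with the largest difference at least 2-fold and above background on both arrays. The genes and lists were chosen with earlier results of these data known. Alternatives were normexp background correction (limma 3.58.1 in R 4.3.3, offset 50) on median rather than mean spot signals, since the files give the former, 4 scalings, the mean of all probes, another detection flag, no detection filter and 1.5-fold. The scripts (Python 3.11.15) were tested on simulated data.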

Additional observations from a re-analysis of the deposited data

Results flagged for a closer look

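No difference between pairs was tested, since each population had 1 array. Listed here are genes whose differences had opposite signs in both pairs of a comparison, each larger than 2 times its scanner error. For the tuft marker, Canx differed by 0.43 within Lgr5+ and by -0.63 within Lgr5-, and Trib3 by 1.42 and -0.62. For Lgr5, Dnajb11 differed by 0.62 within tuft marker+ and by -0.42 within tuft marker- cells, Canx by 0.61 and -0.45, and Creld2 by 0.73 and -0.45. In Canx, Dnajb11 and Creld2, both single positive populations read below the double positive and double negative ones. For Dnajb11 the gap between the Lgr5+ populations was 0.203, within its scanner error of 0.204. For Creld2 that gap was 0.38, short of 2 times its scanner error of 0.204.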

How the results depend on the processing

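With 1 array per population, no replicate could be left out, and no slide block could be fitted since all arrays lay on 1 slide. No paired analysis was possible because each group had 1 array and the labels carry no replicate numbers. The scaling moved the median of all genes within Lgr5- from 0.08 to -0.16 (array median) and 0.37 (authors' values), and that of Lgr5 within tuft marker+ cells from -0.04 to 0.18 and -0.21. The upward share of 2-fold calls moved with it: for the tuft marker within Lgr5- from 57.2% to 37.1% and 79.2%, within tuft marker+ cells from 43.9% to 66.7% and 28.0%, within tuft marker- cells from 55.2% to 41.2% with the array median and 44.4% with normexp, and within Lgr5+ from 56.0% to 72.7% with normexp.

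The median of the ER genes with the tuft marker within Lgr5- was -0.71 with the array median and -0.18 with the authors' values, and that of Lgr5 within tuft marker+ cells was 0.80 with the array median. Counts of ER genes at least 2-fold apart changed as follows. With normexp the tuft marker gave 0 higher within Lgr5+ and 1 lower within Lgr5-, where 3.81% and 4.41% of all genes were called. Lgr5 gave 0 higher within tuft marker+ and 0 lower within tuft marker- cells, beside 2.17% and 0.959% of all genes. With the array median there were 8 lower within Lgr5- and 6 higher within tuft marker+ cells, where 19.2% and 14.8% of all genes were called. With the authors' values there was 1 higher with the tuft marker within Lgr5- and 1 higher with Lgr5 within tuft marker- cells. In these pairs 24.8% and 7.77% of all genes were called higher. At a threshold of 1.5-fold there was 1 lower within Lgr5+, against 20.4% of all genes. At this threshold there were 1 higher and 13 lower within Lgr5-, against 29.1% and 25.1% of all genes. For Lgr5 there were 15 higher and 1 lower within tuft marker+ cells, against 21.8% and 23.9%, and 3 higher within tuft marker- cells, against 18.1%. The highest array was Lgr5+ tuft marker- for 9 genes with normexp and 3 with the array median, Lgr5- tuft marker+ for 0 with the array median and 5 with the authors' values, and Lgr5- tuft marker- for 7 with the authors' values. The lowest was Lgr5- tuft marker- for 1 with the array median and 6 with the authors' values. The cause of these changes was not tested. Every gene called at least 2-fold kept its direction in all 8 alternatives tried and its call in 7 or 8. Not all of these could change a call. Eif2ak3, Atf6, Trib3 and Ddit3 have 1 probe, above background on all 4 arrays. Averaging probes or changing detection therefore left their values as they were. Lists restricted to genes with at least 2 probes, and medians relative to all genes, were added after seeing the data. The ER retention ending of the proteins was not analysed here. Low signal limits Chac1 and Derl3, which were near or below the floor. Eif2ak3 was also dim outside Lgr5+ tuft marker+ cells. It read -2.51 in Lgr5+ tuft marker-, -2.90 in Lgr5- tuft marker+ and -2.43 in Lgr5- tuft marker- cells, with scanner errors from 0.21 to 0.26.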
